A study of Mus musculus with 14 samples.

Results

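The nuclear-encoded subunits of the oxidative phosphorylation machinery were followed in mouse bone marrow-derived macrophages after knockdown of Wdr82, a partner protein of the SET1 histone methyltransferases that is also linked to early transcription termination. Members were taken by gene symbol: Ndufa, Ndufb, Ndufc, Ndufs and Ndufv followed by a digit, Sdha to Sdhd, Uqcr, Cyc1, Cox4 to Cox8 and Atp5, without pseudogenes. This gave 85 of the 21761 genes in the exon count table, and all 85 were also among the 18858 genes of the intron count table. They divide into 35 genes of complex I, 4 of complex II, 9 of complex III, 20 of complex IV (Ndufa4 and Ndufa4l2 included) and 17 of the ATP synthase.

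Oxidative phosphorylation takes place in the inner mitochondrial membrane. Complexes I and II feed electrons from NADH and succinate to ubiquinone, complex III passes them to cytochrome c, complex IV reduces oxygen with them, and the ATP synthase uses the resulting proton gradient. Most subunits are encoded in the nucleus and have to be made together with the few encoded by mitochondrial DNA. In macrophages the balance between this route and glycolysis is known to shift with activation.

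Count data came from 4 libraries: 2 with a scrambled hairpin (scrambled 1 and scrambled 2), 1 with Wdr82 hairpin sh1137 and 1 with Wdr82 hairpin sh830. All were ribosomal RNA-depleted total RNA from untreated FVB/Hsd macrophages on the 7th day of differentiation, infected with retroviral hairpins and selected with puromycin, so the controls share infection and selection with the knockdown. The remaining samples of the series (14 in all), including those given LPS, those labelled with 4sU and those with a Menin hairpin, were not analysed here. Because nothing says that the libraries of a group came from separate animals, p-values measure spread between these libraries, which may be technical. In the main fit this is only the spread left after the library term described below. An exact permutation test of 2 against 2 libraries cannot go below p = 0.33.

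The targeted gene was checked first. Wdr82 stood at 98.0 CPM (counts scaled to a common library size) in scrambled 1 and 148 in scrambled 2, against 25.2 in sh1137 and 40.4 in sh830, so the groups did not overlap. Its log2 fold change was -1.92 ± 0.09 (SE; edgeR quasi-likelihood test with the library term described next, adjusted p = 0.00434). With the group term alone it did not pass (adjusted p = 0.424), nor without scrambled 2 (-1.58, adjusted p = 0.192) or without sh1137 (-1.597, adjusted p = 0.0559); it was below 0 in each. The cells carried macrophage transcripts: the summed level of 10 macrophage markers was 9187 to 15656 CPM in the 4 libraries, with none of the 10 at 0. Of these 10, Fcgr1, Cd68 and Spi1 fell (log2 fold change -1.52, -0.95 and -0.46) and none rose.

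The libraries differ in a way the groups do not explain. Exon counts summed to 34787556 to 43372731 per library, but introns held 40.4% of gene counts in scrambled 1 and 44.2% in sh1137, against 14.6% in scrambled 2 and 15.2% in sh830. The comparison below therefore includes a term for this measured split, which pairs sh1137 with scrambled 1 and sh830 with scrambled 2. That fit leaves 1 residual degree of freedom. Its p-values measure how far the pairs disagree on the knockdown difference, with variance estimates that borrow from all genes. They do not measure the gap between the pairs. The words "rose" and "fell" are used only of genes with a Benjamini-Hochberg adjusted p under 0.05 in that fit. With the group term alone, 0 of all 13884 tested genes passed, so that fit cannot set the members apart. The smallest adjusted p of a member in it was 0.856. An unadjusted p under 0.05 was found in it for 0 members and for 621 of all tested genes.

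Promoter sequences of 4 members that fell are shown to illustrate motif letters, because NRF1, GABPA (an ETS family factor) and YY1 are known regulators of respiratory genes. Promoter sequences of RefSeq (GRCm38.p6; 250 bases before to 50 after the start) matched 68 of the 85 members, with 73 promoters in all. Each line below gives 120 bases before to 30 after the start, 5′ to 3′, and capitals mark CGGAAG (ETS core), GCATGCGC (NRF1 core) or ATGGCG (YY1 core) on either strand. The 4 were picked after the search because their windows hold matches: of 14 such windows of members that fell, 8 held a match and 6 held none. In Atp5g2 an NRF1 core match on each strand overlaps the other.
Atp5g2 (chr15:102671018-102671167, minus strand): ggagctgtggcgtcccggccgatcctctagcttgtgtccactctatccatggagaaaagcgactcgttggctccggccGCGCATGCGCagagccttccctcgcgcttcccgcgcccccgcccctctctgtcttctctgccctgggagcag
Ndufa12 (chr10:94198915-94199064, plus strand): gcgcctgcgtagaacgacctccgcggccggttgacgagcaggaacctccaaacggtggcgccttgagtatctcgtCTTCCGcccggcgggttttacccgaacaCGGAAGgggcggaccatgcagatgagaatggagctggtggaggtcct
Ndufa9 (chr6:126849115-126849264, minus strand): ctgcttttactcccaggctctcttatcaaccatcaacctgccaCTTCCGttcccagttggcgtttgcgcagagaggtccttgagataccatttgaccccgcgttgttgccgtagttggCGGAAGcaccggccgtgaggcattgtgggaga
Cox5a (chr9:57521112-57521261, plus strand): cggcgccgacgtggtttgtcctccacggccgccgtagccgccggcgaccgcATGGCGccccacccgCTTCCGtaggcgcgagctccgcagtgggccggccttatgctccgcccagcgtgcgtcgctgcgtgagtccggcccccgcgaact

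Over the whole promoter sequences, the NRF1 core was found in 10 of 73 member promoters (13.7%) and in 2.71% of all 32851 promoters in the table. The ETS core was found in 39.7% of member promoters against 16.9% of all, and the YY1 core in 27.4% against 8.93%. Among promoters of genes tested in the exon comparison the shares were 4.88%, 28.9% and 14.1%. The CCAAT box (CCAAT) was found in 42.5% of member promoters against 37.4% of all. The GC box (GGGCGG) was in 39.7% against 35.7%, and the TATA box (TATAAA) in 12.3% against 13.6%. Among promoters of tested genes the CCAAT, GC and TATA box shares were 37.7%, 59.6% and 7.88%. Against tested genes, members therefore held the GC box less often and the TATA box more often. The 14 promoters of members that fell held the NRF1 core in 2, the ETS core in 6 and the YY1 core in 5. The 59 promoters of the other members held them in 8, 23 and 15. Those 14 belong to 13 of the 18 members that fell, and Ndufa7 is counted with 2 promoters that overlap. These letter matches describe the sequences and do not show binding.

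In transcript level, the members ranged widely by complex. Per kb of annotated exon, the median member level (mean of both scrambled libraries) was 171 CPM for the ATP synthase, 119 for complex IV, 90.7 for complex II, 85.8 for complex III and 53.8 for complex I. The complex IV median was taken over all 20 members. They include the tissue isoforms with few or no exon counts given below, which lower it, so its place below the ATP synthase depends on the member list. The highest member was Atp5b, the catalytic beta subunit of the ATP synthase, at 488 ± 167 CPM per kb (SD, n = 2), followed by Cox4i1 of complex IV at 396 CPM per kb. These levels carry the gap between the scrambled libraries given next, and complexes II and III were too close to be put in order.

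All members together took 0.586% of exon counts in scrambled 1 (95% Wilson interval 0.584 to 0.589%, counting error only), 0.928% in scrambled 2 (0.925 to 0.930%), 0.515% in sh1137 (0.512 to 0.517%) and 0.798% in sh830 (0.796 to 0.801%). Each knockdown library was below the scrambled library of its own split, and both libraries with few intron counts were above both libraries with many. The difference between the scrambled libraries was larger than the difference within either pair: over the 80 members with at least 10 counts in each library, the median log2 difference was -0.998 between scrambled 1 and scrambled 2. It was -0.23 when sh1137 was set against scrambled 1 and -0.32 when sh830 was set against scrambled 2. The corresponding medians over all genes were -0.11, -0.03 and -0.08.

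**Figure D1:**
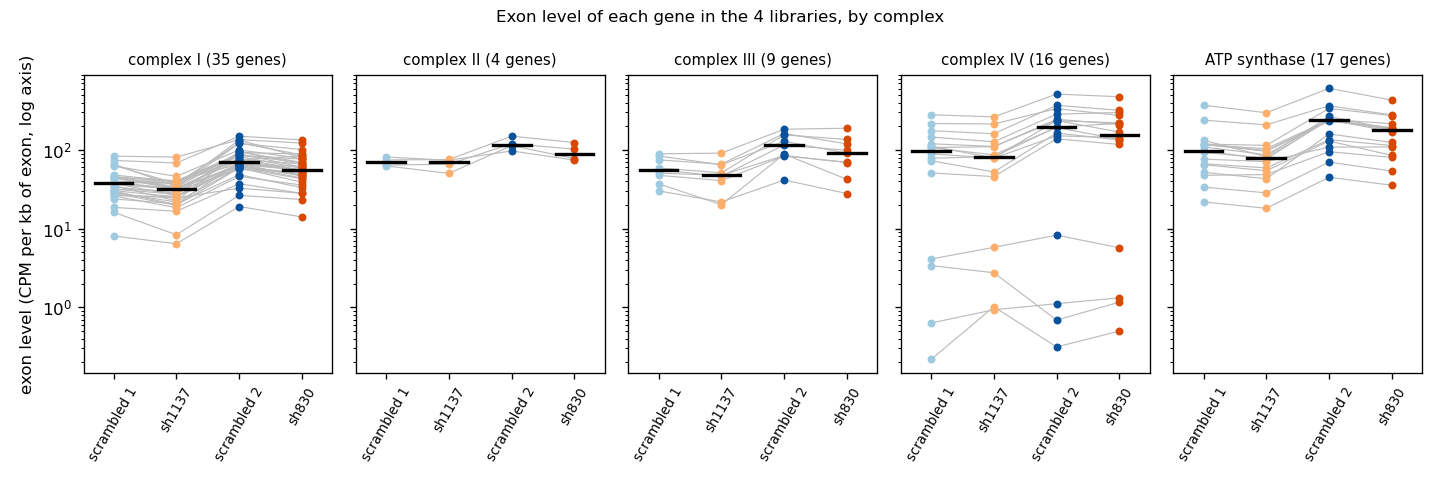
Exon level of each tested member (CPM per kb of exon, log axis) in the 4 libraries, by complex; points are genes, grey lines join a gene, and black bars are medians. Scrambled 2 and sh830 lie above scrambled 1 and sh1137 in every panel for most genes, and the 4 points near the bottom of complex IV are tissue isoforms.

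With the library term, 18 of 81 tested members fell in exon counts with the knockdown and none rose. Across all 13884 tested genes, 7.3% fell and 5.48% rose, but genes with short exons, as most members have, fell more often (shares by length below). At an unadjusted p under 0.05, 47 members were lower and 0 higher, where 4455 of the 13884 tested genes were under it in either direction. DESeq2's Wald test with the same terms gave 17 lower and 0 higher, without Ndufb3 and Ndufv3 (adjusted p = 0.0731 and 0.0575). Of all 13884 tested genes, that test gave 1024 lower and 733 higher. With any 1 library left out, where the group term alone can be fitted, 0 members passed; between 1 and 37 of all genes fell in these fits (0.0069 to 0.26%), so a count of 0 says little about the members. Their median was -0.68 without scrambled 1, 0.29 without scrambled 2, 0.11 without sh1137 and -0.77 without sh830. The median log2 fold change of the members was -0.29, beside -0.02 over all genes. Below 0 were 75 of the 81 members and 7261 of the 13884 tested genes. In 66 of 81 members the knockdown library was lower in both pairs, as it was in 40.3% of all tested genes. For 2 members, Sdha and Cyc1, both knockdown libraries were below both scrambled libraries, as in 15.8% of all tested genes; for 78 the groups overlapped. Median fold changes were -0.36 for complex I, -0.30 for the ATP synthase, -0.25 for complex III, -0.20 for complex II and -0.10 for complex IV.

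**Figure D2:**
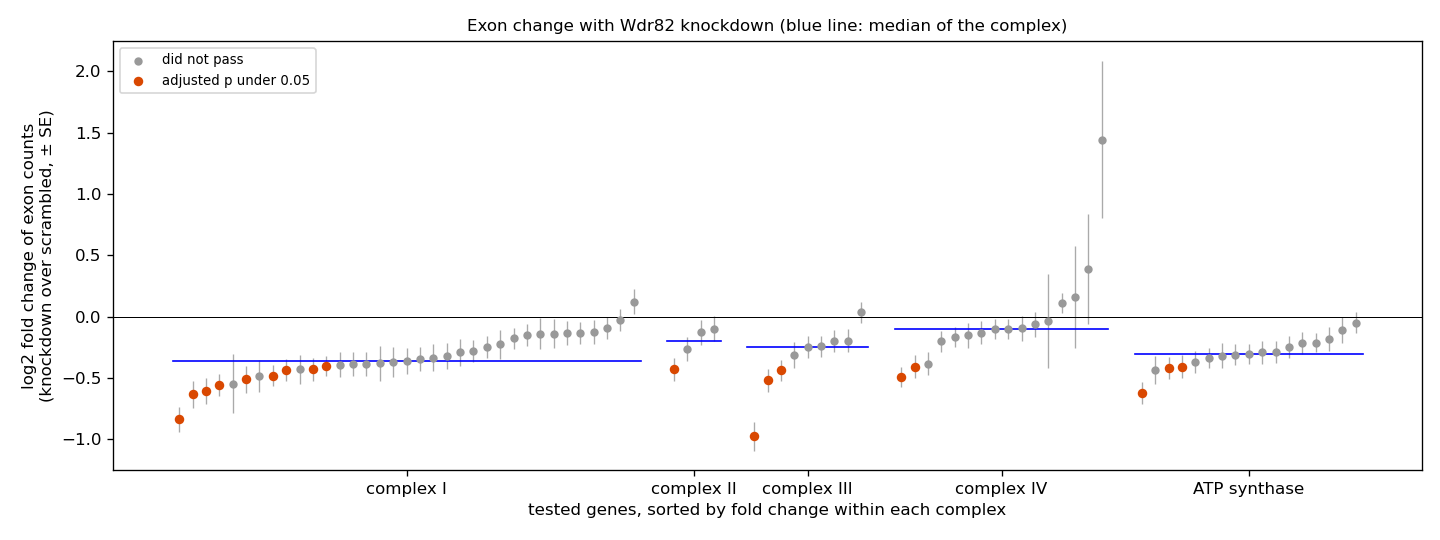
Log2 fold change of exon counts (knockdown over scrambled, with SE) for the 81 tested members, sorted within each complex; orange points passed the adjusted threshold and blue lines are medians. All 18 orange points lie below 0, and 9 of them belong to complex I.

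Complex I, the NADH dehydrogenase, had 9 of 35 members that fell. Ndufa12 (mm9 chr10:93661754-93683693), an accessory subunit of the arm that oxidises NADH, fell most of these: its level was 37.0 CPM in scrambled 1, 75.1 in scrambled 2, 19.4 in sh1137 and 44.8 in sh830, a log2 fold change of -0.84 ± 0.10 (SE, adjusted p = 0.0163). The value of sh830 was above that of scrambled 1, so the groups overlapped although each pair fell. Ndufv2, a core iron-sulfur subunit, was at 44.3 and 92.7 CPM in the scrambled libraries and at 31.1 in sh1137 and 61.1 in sh830 (-0.56 ± 0.09, adjusted p = 0.0246). Ndufb9, an accessory subunit of the membrane arm, was at 41.5 and 80.0 CPM against 24.4 and 56.3 (-0.63 ± 0.11, adjusted p = 0.0268). Ndufa7, another accessory subunit, was at 17.0 and 46.5 CPM against 10.8 and 31.4 (-0.61 ± 0.11, adjusted p = 0.0283). In each of these 3 genes sh1137 was the lowest library and sh830 lay between the scrambled ones. The others that fell included Ndufb3 (-0.51), Ndufa9 (-0.48), Ndufv1, which binds FMN (-0.43), and Ndufv3 (-0.43).

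The other 26 complex I members did not pass. Ndufa2, with the highest level per length of the complex in scrambled cells (111 CPM per kb), stood at -0.13 ± 0.09 on the log2 scale (adjusted p = 0.347). Ndufa1 was the single complex I member with a value above 0, at 0.12 ± 0.10 (adjusted p = 0.455): 19.3 and 36.7 CPM in the scrambled libraries, 20.1 in sh1137 and 41.7 in sh830.

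In complex II, succinate dehydrogenase, 1 of 4 members fell. Sdhc, a membrane anchor, was at 73.9 and 134 CPM in scrambled 1 and 2, 59.4 in sh1137 and 91.7 in sh830 (-0.43 ± 0.10, adjusted p = 0.0453). Sdha, the flavoprotein, had both knockdown libraries (212 and 212 CPM) below both scrambled ones (232 and 278 CPM), at -0.26 ± 0.10 (adjusted p = 0.13). Sdhb, the iron-sulfur subunit, and Sdhd, the other anchor, were at -0.13 ± 0.10 and -0.10 ± 0.10 and did not pass.

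In complex III, 3 of 9 members fell. Uqcrq (mm9 chr11:53242450-53244333), a small accessory subunit, had the largest fall of all members: 18.5 CPM in scrambled 1, 44.1 in scrambled 2, 10.1 in sh1137 and 21.1 in sh830, or -0.98 ± 0.12 on the log2 scale (adjusted p = 0.016). Cyc1, cytochrome c1, was at 54.4 and 74.8 CPM against 39.4 and 50.3 (-0.52 ± 0.09, adjusted p = 0.0286), with both knockdown libraries below both scrambled ones. Uqcrc1, a core protein, was at 139 and 214 CPM against 107 and 151 (-0.44 ± 0.09, adjusted p = 0.0349). Uqcrh, the hinge protein and the highest of the complex per length, was nearly level within both pairs: 48.8 and 49.7 CPM in scrambled 1 and sh1137, 100.2 and 103 in scrambled 2 and sh830 (0.03 ± 0.08, adjusted p = 0.803).

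In complex IV, cytochrome c oxidase, 2 of 16 tested members fell. Cox5b was at 63.5 and 135 CPM in the scrambled libraries and at 45.0 and 96.0 in sh1137 and sh830 (-0.49 ± 0.08, adjusted p = 0.0266). Cox5a, the other subunit of the Cox5 name, was at 73.9 and 134 CPM against 59.95 and 93.8 (-0.41 ± 0.09, adjusted p = 0.0479). Cox4i1, the most abundant member of the complex per length, was at 196 and 358 CPM against 184 and 332 (-0.10 ± 0.08, adjusted p = 0.424). Cox7a2l, a protein of respiratory supercomplexes, was slightly higher in each knockdown library than in its scrambled partner (90.3 and 94.4 CPM, 224 and 250.2 CPM) and did not pass (0.11 ± 0.08, adjusted p = 0.388).

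Several subunits of complex IV have tissue isoforms, and in exon counts the macrophages carried mainly one of each pair. The isoforms known from lung, heart, muscle or testis were low in exon counts in every library. In scrambled 1, scrambled 2, sh1137 and sh830, Cox4i2 had 112, 21, 81 and 39, Cox6a2 6, 8, 25 and 14, Cox6b2 16, 26, 21 and 34, and Cox7a1 63, 117, 79 and 89. Cox7b2 and Cox8c had 0 exon counts in all 4 libraries, which allows up to 3 counts in each. Cox8b and Ndufa4l2 had at most 11 and 7 exon counts and were not tested. Introns of Cox4i2 were not low, with 1724 counts over the 4 libraries beside 1872 for Cox4i1. Those of Cox6a2, Cox6b2 and Cox7a1 had 1, 17 and 161. None of the 4 tested isoforms passed, and Cox6a2, at 1.44 ± 0.64 (adjusted p = 0.184), rests on few counts. The partners did not pass either: Cox6a1 (-0.15), Cox6b1 (-0.17), Cox7a2 (-0.38, adjusted p = 0.0526), Cox7b (-0.20), Cox8a (-0.06) and Ndufa4 (-0.10). Striated muscle markers were a list of 12 with Mb, Myh4 and Myh6 at 0 in all libraries. They summed to 3.37, 2.77, 6.42 and 2.54 CPM in scrambled 1, scrambled 2, sh1137 and sh830. Of 4 tested, 1 rose, Acta1, which alone was at 0.14, 0.10, 4.31 and 0.70 CPM in the same order. Tnnt3, Myh7 and Mylpf, the others tested, were at -1.13, -0.07 and 0.11 and did not pass. Cox6a2 exons also overlap those of the opposite-strand gene Itgad by 69 bases. The part of muscle transcripts or of this overlap in the Cox6a2 values was not tested.

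Of the 17 ATP synthase members, 3 fell and all had values below 0. Atp5g2 (mm9 chr15:102493299-102501478), a gene for the membrane c-ring subunit, was at 86.2 and 172 CPM in the scrambled libraries, 53.0 in sh1137 and 118 in sh830 (-0.62 ± 0.09, adjusted p = 0.0207). Atp5o, the OSCP subunit of the peripheral stalk, was at 84.4 and 186 CPM against 67.1 and 132 (-0.42 ± 0.09, adjusted p = 0.0416). Atp5b was at 695 and 1139 CPM against 558 and 807 (-0.41 ± 0.10, adjusted p = 0.0495), and it no longer passed with DESeq2 size factors (adjusted p = 0.0507). The other c-ring genes, whose mature proteins are the same, were at -0.43 ± 0.11 (Atp5g1) and -0.34 ± 0.08 (Atp5g3), with adjusted p of 0.0637 and 0.0577. Atp5d, the delta subunit, was nearest to 0 at -0.05 ± 0.09.

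**Figure D3:**
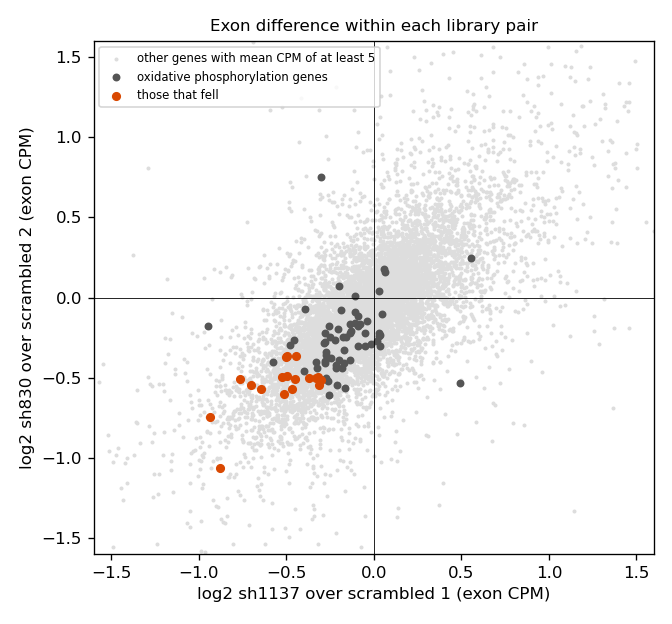
Log2 exon difference of sh1137 over scrambled 1 (horizontal) and of sh830 over scrambled 2 (vertical) for the members (dark), those that fell (orange) and other genes with a mean CPM of at least 5 (light grey). The orange genes lie below 0 in both pairs; some grey and dark points lie outside the plotted range or in other quadrants.

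Members have short mature transcripts, and exon length moved with the result. The median summed exon length of tested members was 692 bases against 3268 for all tested genes, and 67.9% of tested members were under 1 kb against 7.07% of all. In genes that are not members (mean CPM of at least 5), the median log2 fold change was -0.40 below 500 bases, -0.22 from 500 to 700, -0.26 from 700 to 1000 and -0.22 from 1000 to 1500, and the members of these classes stood at -0.29 (13 genes), -0.25 (26), -0.30 (12) and -0.20 (9). In these 4 length classes the members' medians were therefore close to, and in 2 of the 4 less negative than, those of other genes. The share of other genes that fell was 29.1%, 10.5%, 18.7% and 15.2% in these classes, and 2 of 13, 6 of 26, 1 of 12 and 2 of 9 members fell. From 1500 to 2500 bases the 11 members had a median of -0.41 and the 1875 other genes -0.14, and from 2500 to 4000 bases the 5 members -0.30 and the 2630 others -0.10. Of the 11, 7 fell, among them Ndufv1, Ndufv2, Ndufv3, Cyc1, Uqcrc1 and Atp5b, against 12.2% of other genes of that length; of the 5, 0 fell, against 10.5%. The gap between the scrambled libraries (scrambled 1 over scrambled 2) followed length in other genes too, with a median of -1.24 below 500 bases, where members had -1.25. In longer classes the members stood further below 0 than other genes. Their medians were -0.86 against -0.63 from 1000 to 1500 bases and -0.75 against -0.40 from 1500 to 2500. From 2500 to 4000 bases they were -1.04 against -0.19. The part of transcript length in these differences was not tested.

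**Figure D4:**
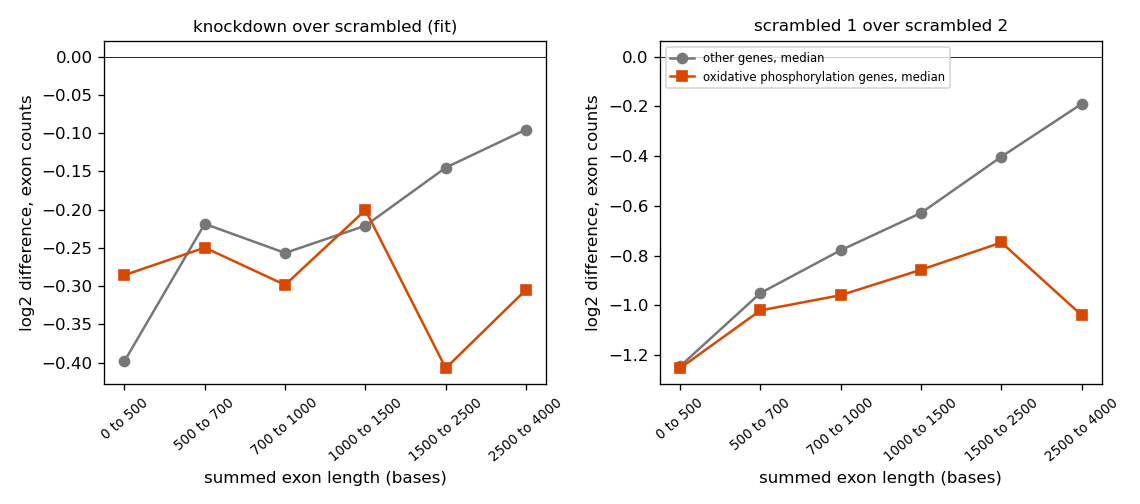
Median log2 difference of exon counts by summed exon length, for members and other genes; left, knockdown over scrambled from the fit, right, scrambled 1 over scrambled 2. Below 1500 bases the lines of members and other genes lie close together on the left, and above it the members lie lower. On the right the lines nearly meet in the shortest class, and members lie lower in the longer ones, most so from 2500 to 4000 bases.

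In intron counts, which come mainly from unspliced RNA, few members changed. Of 79 tested, 1 fell and 2 rose, where 7.02% of all 12405 tested genes fell and 8.17% rose; the members' median log2 fold change was -0.07, beside -0.03 over all genes. With any 1 library left out no member passed, and 4 to 40 of all genes fell and 30 to 218 rose. The knockdown library was lower in both pairs for 32 of 79 members, and for 39.2% of all tested genes. Atp5g2, which also fell in exons, fell in introns by a nearly equal amount, with a log2 value of -0.61 ± 0.11 (adjusted p = 0.00534): 57.2 and 85.2 intron CPM in the scrambled libraries against 36.7 in sh1137 and 56.9 in sh830. All knockdown values were below all scrambled values for that gene. Its promoter carries the overlapping NRF1 core matches shown above, whose part in the fall was not tested. The NRF1 core was in 2 of 14 promoters of members that fell and in 8 of 59 of the others. Cox6b1 had no intron counts in any library: its introns lie inside the annotated intron span of another gene, and bases shared by genes carried no counts.

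Introns of Sdhb (mm9 chr4:140517186-140535107) rose: 60.6 CPM in scrambled 1, 99.9 in scrambled 2, 87.7 in sh1137 and 135 in sh830, a log2 fold change of 0.48 ± 0.10 (adjusted p = 0.0101). The exon value of the same gene, -0.13, went the other way without passing. Ndufs8 introns, of a gene for an iron-sulfur subunit of complex I, also rose: 23.1 and 47.3 CPM in the scrambled libraries against 32.2 and 60.4 (0.42 ± 0.12, adjusted p = 0.0462). Both values lost significance in DESeq2's Wald test (adjusted p = 0.0558 for Sdhb and 0.293 for Ndufs8), and the direction of Ndufs8 turned to -0.04 without scrambled 1 and to -0.11 without sh830 (group term alone). In both genes the groups overlapped, since scrambled 2 was above sh1137. The annotated span of Ndufs8 (mm9 chr19:3908870-3912750) overlaps a deposited non-gene region named for the start of Tcirg1, which was at 10.9 and 11.9 CPM in the scrambled libraries and 27.6 and 15.2 in sh1137 and sh830 (0.85 ± 0.26, adjusted p = 0.0846). A second such region, named for the start of Ndufs8 itself, was at 1.98 and 1.40 CPM in the scrambled libraries and 2.33 and 1.69 in sh1137 and sh830 (0.25 ± 0.32, adjusted p = 0.612). The part of transcription from these regions in the Ndufs8 intron counts was not tested.

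Exon and intron changes of each gene were also compared in one model with an interaction term. At an unadjusted p under 0.05 (edgeR), intron counts moved above exon counts in 25 members and below in 2. A count over all genes at that p was not made, so these counts do not set the members apart from other genes. At the adjusted threshold, intron counts moved above exon counts in 4 of 78 members and below in none. Of 11772 tested genes, 0.934% and 0.739% did so. The 4 were Ndufs8 (0.78 ± 0.14, adjusted p = 0.00428), Sdhb (0.61 ± 0.12, adjusted p = 0.00641), Ndufv2 (0.58 ± 0.14, adjusted p = 0.0297) and Ndufb9 (0.63 ± 0.16, adjusted p = 0.0446). For Ndufv2 and Ndufb9 the intron values themselves were near level, at 0.03 ± 0.12 and -0.01 ± 0.17, while both fell in exons. Over the 78 members the median difference, intron minus exon change, was 0.24, beside 0.00 over all genes, and it was above 0 in 66. With DESeq2 size factors 10 members were above and 1 below, beside 270 above and 252 below of all 11772 tested genes. With the group term alone, or with any 1 library left out, none of the 4 passed, and at most 1 of all tested genes did in any of these fits; the members' median ranged from -0.03 without scrambled 2 to 0.50 without scrambled 1.

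**Figure D5:**
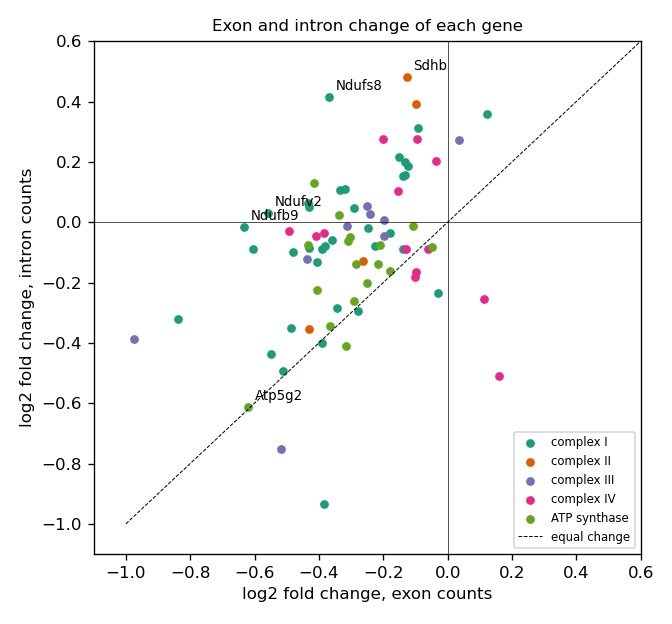
Log2 fold change of intron counts against that of exon counts for the members tested in both (group comparison with the library term), coloured by complex; the dashed line marks equal change. Most genes lie above the line, and named genes passed a test in introns or in the comparison of introns with exons.

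Other genes of mitochondrial energy metabolism were counted in the same fit, beside the 7.3% of all tested genes that fell. Assembly factors, which help build the complexes, had 5 of 54 that fell (9.26%), a share near that of all genes, and none that rose. Among them were Coa3 (-0.65, adjusted p = 0.0247) and Cox10, which takes part in heme A synthesis (-0.66, adjusted p = 0.0268). The median of the assembly factors was -0.21. Of the 2 tested subunits or carriers outside the symbol rule, cytochrome c itself (Cycs) fell: 87.4 and 170 CPM in the scrambled libraries against 60.1 and 118 (-0.53 ± 0.08, adjusted p = 0.0225). Ndufab1, the acyl carrier subunit of complex I, was at -0.29 (adjusted p = 0.127). Enzymes of the citric acid cycle and pyruvate dehydrogenase had 6 of 18 that fell (33.3%), such as fumarase Fh1 (-0.62) and Suclg2 (-0.57), and a median of -0.32. In glycolysis 3 of 17 fell (17.6%), with Tpi1 and Ldha both at -0.53 and a median of -0.11.

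Mitochondrial ribosomal proteins, which translate the subunits encoded by mitochondrial DNA, had 19 of 77 that fell (24.7%), such as Mrpl11 (-0.76) and Mrpl24 (-0.72), none that rose, and a median of -0.41. Cytosolic ribosomal proteins, also short and abundant, had 14 of 93 that fell (15.1%), such as Rpl36a (-0.66) and Rpl28 (-0.49), none that rose, a median of -0.22 and a scrambled 1 over scrambled 2 median of -1.08. Among 20 regulators of mitochondrial genes 4 fell (20.0%) and none rose: Pprc1, a coactivator related to PGC-1 (-0.57, adjusted p = 0.0213), Myc (-0.53, adjusted p = 0.0386), Tfb1m (-1.23) and Ybx1 (-0.41). The transcripts of the factors named for the promoter letters were at -0.24 ± 0.10 (Nrf1), -0.06 ± 0.09 (Gabpa) and 0.02 ± 0.09 (Yy1) and did not pass. Genes of the mitochondrial DNA were not analysed here.

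Markers of other cells that a marrow culture could hold were low but not constant. Fibroblast markers (8 in the table) summed to 1.15 CPM in scrambled 1, 35.5 in scrambled 2, 2.01 in sh1137 and 112 in sh830, and 1 of 6 tested, Col1a1, rose. T cell markers summed to 2.67, 2.92, 7.44 and 5.82 CPM in the same order, and 1 of 4 tested, Lck, rose. B cell markers summed to 2.82 to 6.10 CPM with Pax5 at 0 in all libraries, and neutrophil markers to 3.94 to 16.5 CPM; none of these passed. In bulk RNA fewer cells of a type and less RNA per cell cannot be told apart, and the part of these cells in the member values was not tested.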

How the data were processed

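The authors deposited whole-number read counts per gene over exons and over introns for 4 libraries, with the annotation used, as the labels' protocols and file layout show. The submitters' processing notes name the mm9 build, SICER, Cuffdiff 2.1.1, Cufflinks 2.1.1 and TopHat 1.3.1; which tool made the counts is not given in the sources used here. From the counts, intron bases shared with another gene carried no reads on either strand (87 of 87 genes lying wholly inside same-strand introns, and 82 of 82 inside opposite-strand introns only, had 0 intron counts), so overlapping genes lose reads. Member exons overlap opposite-strand genes by up to 344 bases (Ndufa13).

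Entrez identifiers were matched to symbols with the RefSeq table. edgeR 4.0.16 (R 4.3.3; TMM factors from genes, filterByExpr, quasi-likelihood test, group and library term) was fitted over all genes and non-gene regions, and Benjamini-Hochberg adjusted over them; SE is the fold change over the root of F. CPM are TMM-scaled, and a log2 difference within a pair needs 10 counts in each library. The interaction fit used exon and intron columns together. DESeq2 1.42.0 and other settings were alternatives, and the fit was tested on simulated data. Exon length classes were chosen after seeing the data.

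Members and lists were chosen with earlier results of these data known. Named with values were, per complex, the 4 members with the smallest adjusted p among those that passed, the highest by level per kb and by fold change, the tissue isoforms and their partners, members passing in the intron fits, and up to 2 genes each way per list; Nrf1, Gabpa, Yy1, Ndufab1 and other single genes outside that rule were chosen after their values were seen. Cell type markers were checked as lists. Some single genes are counted but not reported here.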

Additional observations from a re-analysis of the deposited data

How the results depend on the processing

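No paired analysis was possible because the hairpin libraries carry no replicate number shared with the scrambled ones; the library term in the fit pairs them by measured intron share, not by a label. With the group term alone, 0 members fell in exon counts, 0 fell or rose in intron counts and 0 had introns above exons, as for all genes tested. Scaling to exon plus intron library sizes gave 32 members that fell in exons, against 18, with a median of -0.35, while the share of all genes that fell went from 7.3% to 12.01% and their median from -0.02 to -0.09. The summed exon level, -0.29 on the log2 scale from the scaled counts, was -0.21 as a share of raw counts. Without the filter on low counts 3 members fell in introns, where 1133 of all 16036 genes did. In that setting 7 members had introns above exons, as did 182 of all 15172 genes. DESeq2 size factors gave 10 members with introns above exons and 1 below, and 270 and 252 of all 11772 genes. In DESeq2's Wald test 0 members rose in introns, where 551 of all 12405 tested genes did. The members' intron median for sh830 over scrambled 2 alone was 0.0038.

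With each library left out in turn (group term alone, the lone library of a group assumed to vary like the other group), 0 to 0 members fell in exons, 0 to 0 fell or rose in introns and 0 to 0 had introns above exons. The median of the members ran from -0.77 to 0.29 in exons, from -0.30 to 0.19 in introns and from -0.031 to 0.50 for introns against exons. Among members that fell, exon values changed sign for Atp5o (-1.01 to 0.24), Ndufa7 (-1.55 to 0.32), Ndufv2 (-1.14 to 0.057), Ndufv3 (-0.97 to 0.059), Sdhc (-0.81 to 0.033), Cox5a (-0.79 to 0.056) and Cox5b (-1.14 to 0.15); the Ndufs8 intron value ran from -0.11 to 1.01. These fits do not hold the difference between the library pairs, which is larger than the knockdown difference. Members with few counts, such as Cox6a2, Cox8b and Ndufa4l2, are limited by depth.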
